A study of Mus musculus with 16 samples.

Results

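Genes for voltage-gated sodium channels, potassium channels and chloride channels of the Clcn family were followed in quadriceps muscle of mice that lack the enzyme Nampt in skeletal muscle and of wild-type mice. The members were taken by name: a gene symbol beginning with Scn followed by a number and an a or b, with Kcn followed by letters and a number, or with Clcn, and a mean of at least 0.5 CPM (counts scaled to a common library size) over the 16 libraries. Of the 45706 genes in the table, 119 matched these names and 46 reached the level, while 73 did not. 1 further matching potassium channel gene was left out by the rule. The members were thus chosen by their measured mean level over both genotypes, and levels are given below as a description. Kcnn4, Kcnq1 and Kcnj3 lay just inside the limit at 0.5746, 0.5321 and 0.5255 CPM, and Kcnd1, Kcnmb1 and Kcna6 just outside it at 0.4902, 0.4684 and 0.4598 CPM. All 46 members passed the filter on low counts and were tested.

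Polyadenylated RNA was sequenced in 8 quadriceps libraries of mice whose NAMPT knockout is specific to skeletal muscle (KO) and in 8 of wild-type mice (WT). Nampt makes nicotinamide mononucleotide from nicotinamide, a rate-limiting step of NAD salvage. The labels describe no treatment, and the Cre driver, strain, age, sex and litter were not given in the sources used here. They do not say that each library is a separate animal, so a p-value here reflects only the spread among these libraries, which may in part be technical.

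A muscle fibre fires when sodium channels open along its surface and transverse tubules, and it returns to rest as potassium leaves through voltage-gated and inward rectifier channels. Unlike most excitable cells, the resting skeletal muscle fibre carries most of its membrane conductance as chloride through Clcn1, which keeps it from firing repeatedly. Mutations in the human counterparts of Scn4a and Clcn1 cause myotonia, and those in SCN4A and KCNJ2 also cause forms of periodic paralysis. Each sodium channel has 1 pore-forming alpha subunit joined by beta subunits, whereas most voltage-gated potassium channels are built of several alpha subunits that can mix within a subfamily.

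To show the start regions of 4 genes with high levels per exon length, promoter windows of 300 bases are printed for Scn4a, Scn4b, Clcn1 and Kcna7, from 250 bases before to 50 after the start annotated by RefSeq (GRCm38.p6), 5′ to 3′ on the gene's strand. Of the 46 members, 32 had such an entry. Capitals mark E-boxes (CANNTG, the letters that myogenic basic helix-loop-helix factors bind) and, in Clcn1, the site that matches the MEF2 motif. The windows are chr11:106349341-106349640 on the minus strand for Scn4a, chr9:45138374-45138673 on the plus strand for Scn4b, chr6:42286435-42286734 on the plus strand for Clcn1 and chr7:45405710-45406009 on the plus strand for Kcna7.
Scn4a: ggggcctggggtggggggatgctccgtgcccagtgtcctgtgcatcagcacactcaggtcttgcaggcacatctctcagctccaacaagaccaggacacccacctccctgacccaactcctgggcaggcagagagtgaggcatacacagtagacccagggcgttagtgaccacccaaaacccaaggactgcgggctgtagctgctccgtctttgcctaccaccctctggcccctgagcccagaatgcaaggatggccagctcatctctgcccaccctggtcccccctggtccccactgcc
Scn4b: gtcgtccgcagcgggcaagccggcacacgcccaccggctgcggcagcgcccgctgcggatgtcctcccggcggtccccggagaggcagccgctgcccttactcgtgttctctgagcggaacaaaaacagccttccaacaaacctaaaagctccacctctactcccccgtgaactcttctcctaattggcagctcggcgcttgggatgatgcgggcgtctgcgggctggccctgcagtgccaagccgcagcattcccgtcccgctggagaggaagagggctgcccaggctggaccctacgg
Clcn1: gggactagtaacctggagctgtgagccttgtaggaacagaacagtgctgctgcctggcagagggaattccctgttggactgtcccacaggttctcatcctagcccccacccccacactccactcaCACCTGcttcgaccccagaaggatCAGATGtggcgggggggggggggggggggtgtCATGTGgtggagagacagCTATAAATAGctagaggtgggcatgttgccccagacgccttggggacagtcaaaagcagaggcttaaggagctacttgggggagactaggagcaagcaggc
Kcna7: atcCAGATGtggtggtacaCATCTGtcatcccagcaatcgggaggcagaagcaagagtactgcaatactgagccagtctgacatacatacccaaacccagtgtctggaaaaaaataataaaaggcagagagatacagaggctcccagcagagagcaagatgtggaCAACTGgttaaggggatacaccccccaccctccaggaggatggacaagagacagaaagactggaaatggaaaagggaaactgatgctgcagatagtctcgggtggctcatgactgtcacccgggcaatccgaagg
The Clcn1 window held 3 E-boxes, 125, 101 and 69 bases before the start, and a MEF2 match of 10 letters that began 51 bases before the start and contained the letters TATAAA. The Kcna7 window also held 3 E-boxes, 247, 231 and 85 bases before the start, while those of Scn4a and Scn4b held 0. The counts for Scn4a, Scn4b and Kcna7 hold for the RefSeq start only. In GENCODE vM21, used below for exon lengths, the 5′ end of Scn4a is at 106353288 and that of Kcna7 at 45405653. Both windows thus lie inside the gene as annotated there. Scn4b begins at 45138395 in that annotation, so most of its window also lies inside the gene. In the table, CANNTG was found in 77.3% of the 44 windows of member genes and in 72.3% of all 32851 windows, CAGCTG in 27.3% of member and 16.3% of all windows, TATAAA on either strand in 6.82% of member and 13.6% of all windows, and a MEF2 match on either strand in 4.55% of member and 3.19% of all windows. CAGCTG is 1 of the forms of CANNTG, so those counts overlap. A match describes the letters of the window and is not a measured binding site.

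The libraries held 16065394 to 51881258 estimated counts. Nampt itself had 60.4 to 88.7 CPM in KO libraries and 125.5 to 161.1 CPM in WT libraries, with a log2 fold change of −0.95 ± 0.073 (SE; edgeR quasi-likelihood adjusted p = 9.68e-07). The summed level of 10 skeletal muscle markers ran from 140400 to 167500 CPM in KO and from 140000 to 174800 CPM in WT. 3 RNAs that normally lack a poly(A) tail, Rn7sk, Rmrp and Rpph1, summed to 24.8 to 40.4 CPM in KO 1, 3, 5 and 8, to 2.24 to 6.03 CPM in the other 4 KO libraries, to 17.4 CPM in WT 8 and to 1.23 to 9.00 CPM in the other 7 WT libraries. The RNA is from whole muscle, in which fewer cells of a type and less RNA per cell cannot be told apart.

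No channel gene passed the test between KO and WT. By edgeR's quasi-likelihood test with Benjamini-Hochberg adjustment over 13792 genes, 0 of the 46 members had an adjusted p under 0.05, where 6 of all genes did (0.0435%), 3 lower and 3 higher in KO (0.0218% each way). Adjusted p over the members ran from 0.192 for Kcnab1 to 0.993. limma-voom called 0 members, against 5 of all genes (0.0363%). DESeq2 called 1 member, Kcnab1, of the 26 to which it gave an adjusted p, against 96 of 9231 genes (1.04%). At an unadjusted p under 0.05, edgeR picked out 8 members (17.4%), 6 lower and 2 higher in KO, against 9.57% of all genes, of which 5.55% were lower and 4.02% higher. The groups overlapped for all 46 members, where they did not for 17 of all genes tested (0.123%), so overlap does not set these channels apart. The median log2 fold change was −0.03 over the members, 20 above and 26 below 0, and 0.00 over all genes.

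The size of difference that the data leave room for was read from the 95% intervals of the fold changes. For 32 of the 46 members (69.6%) the whole interval lay within a 1.5-fold change in either direction, against 86.2% of all genes. Among the 19 members with a mean of at least 10 CPM this held for 18, the exception being Kcng4, and among the 27 lower ones for 14. The remaining 14 intervals reach past 1.5-fold on the lower side, the upper side or both. A difference of that size on that side was neither shown nor bounded in these genes at this depth and spread.

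**Figure D1:**
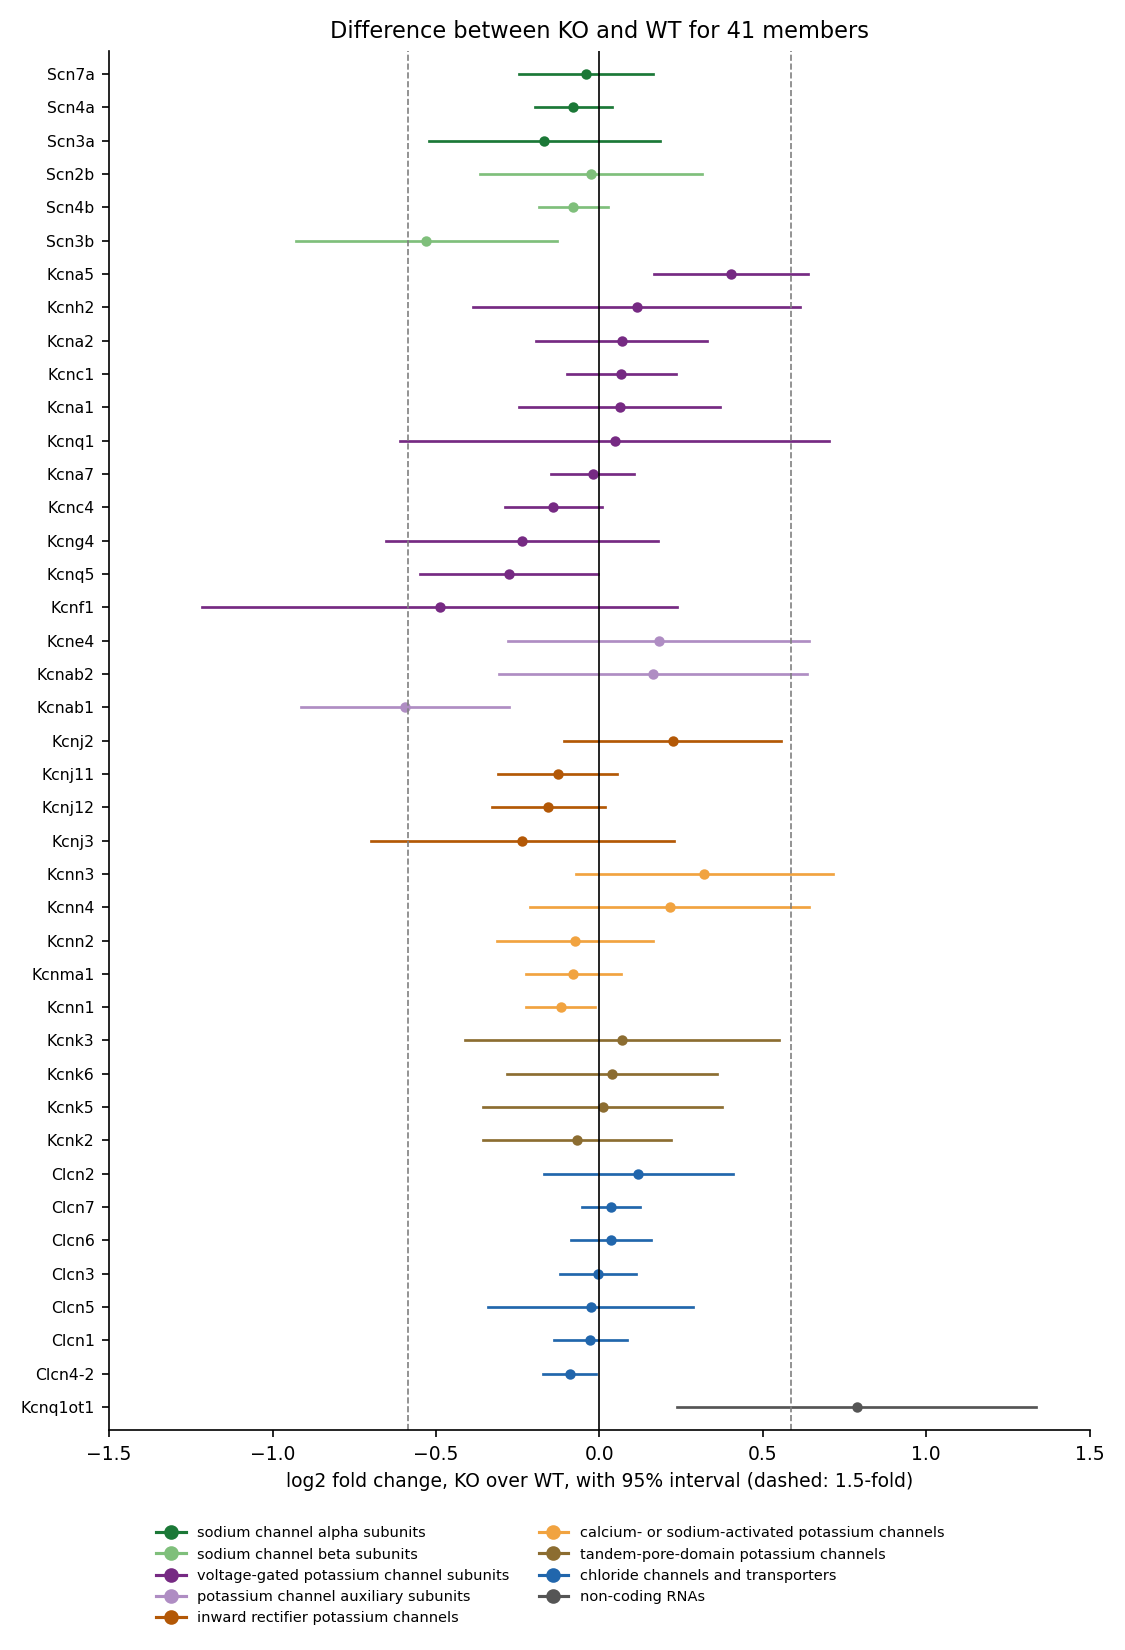
Log2 fold change of 41 members, KO over WT, with its 95% interval, ordered within classes, the dashed lines marking a 1.5-fold change. The intervals of Scn4a, Scn4b, Clcn1 and Kcna7 are narrow and span 0, while those of Kcnf1 and Kcnq1 are wide and Kcnq1ot1 lies farthest to the right at 0.79.

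Levels of different genes were compared as CPM per kb of exon length. Among the genes described here, the highest were the sodium channel beta subunit Scn4b at 92.2 ± 5.86 CPM per kb in KO and 97.4 ± 7.01 in WT (n = 8 libraries each, SD), the pore Scn4a at 83.9 ± 6.56 in KO and 88.6 ± 7.08 in WT, the potassium channel Kcna7 at 80.3 ± 6.36 in KO and 81.5 ± 7.76 in WT, and the chloride channel Clcn1 at 34.8 ± 1.43 in KO and 35.5 ± 3.46 in WT. The ranges of mean ± SD overlapped between Scn4b and Scn4a and between Scn4a and Kcna7 in both groups, so the order within these 3 is within the spread. Clcn1 stood below these 3 and above the next gene in order beyond the spread.

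Below these 4, Kcnc4, Kcnj12, Kcng4, Kcnj11, Kcnc1 and Kcnj2 also had at least 10 CPM per kb over all libraries. Kcnc4, at 20.6 ± 2.21 in KO and 22.7 ± 2.43 CPM per kb in WT, and Kcnj12, at 18.8 ± 2.17 in KO and 20.9 ± 2.56 in WT (n = 8 libraries each, SD), overlapped. The lowest member was the sodium channel gene Scn3a, at 0.0466 CPM per kb over all libraries. 23 of the 46 members reached 1 CPM per kb, and 25 did so when the longest transcript replaced the exon union. The summed level of all members was 684.5 ± 28.0 CPM per kb in KO and 694.4 ± 31.3 in WT (n = 8 libraries each, SD), with overlapping ranges of 646.0 to 731.8 in KO and 655.6 to 758.8 in WT.

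**Figure D2:**
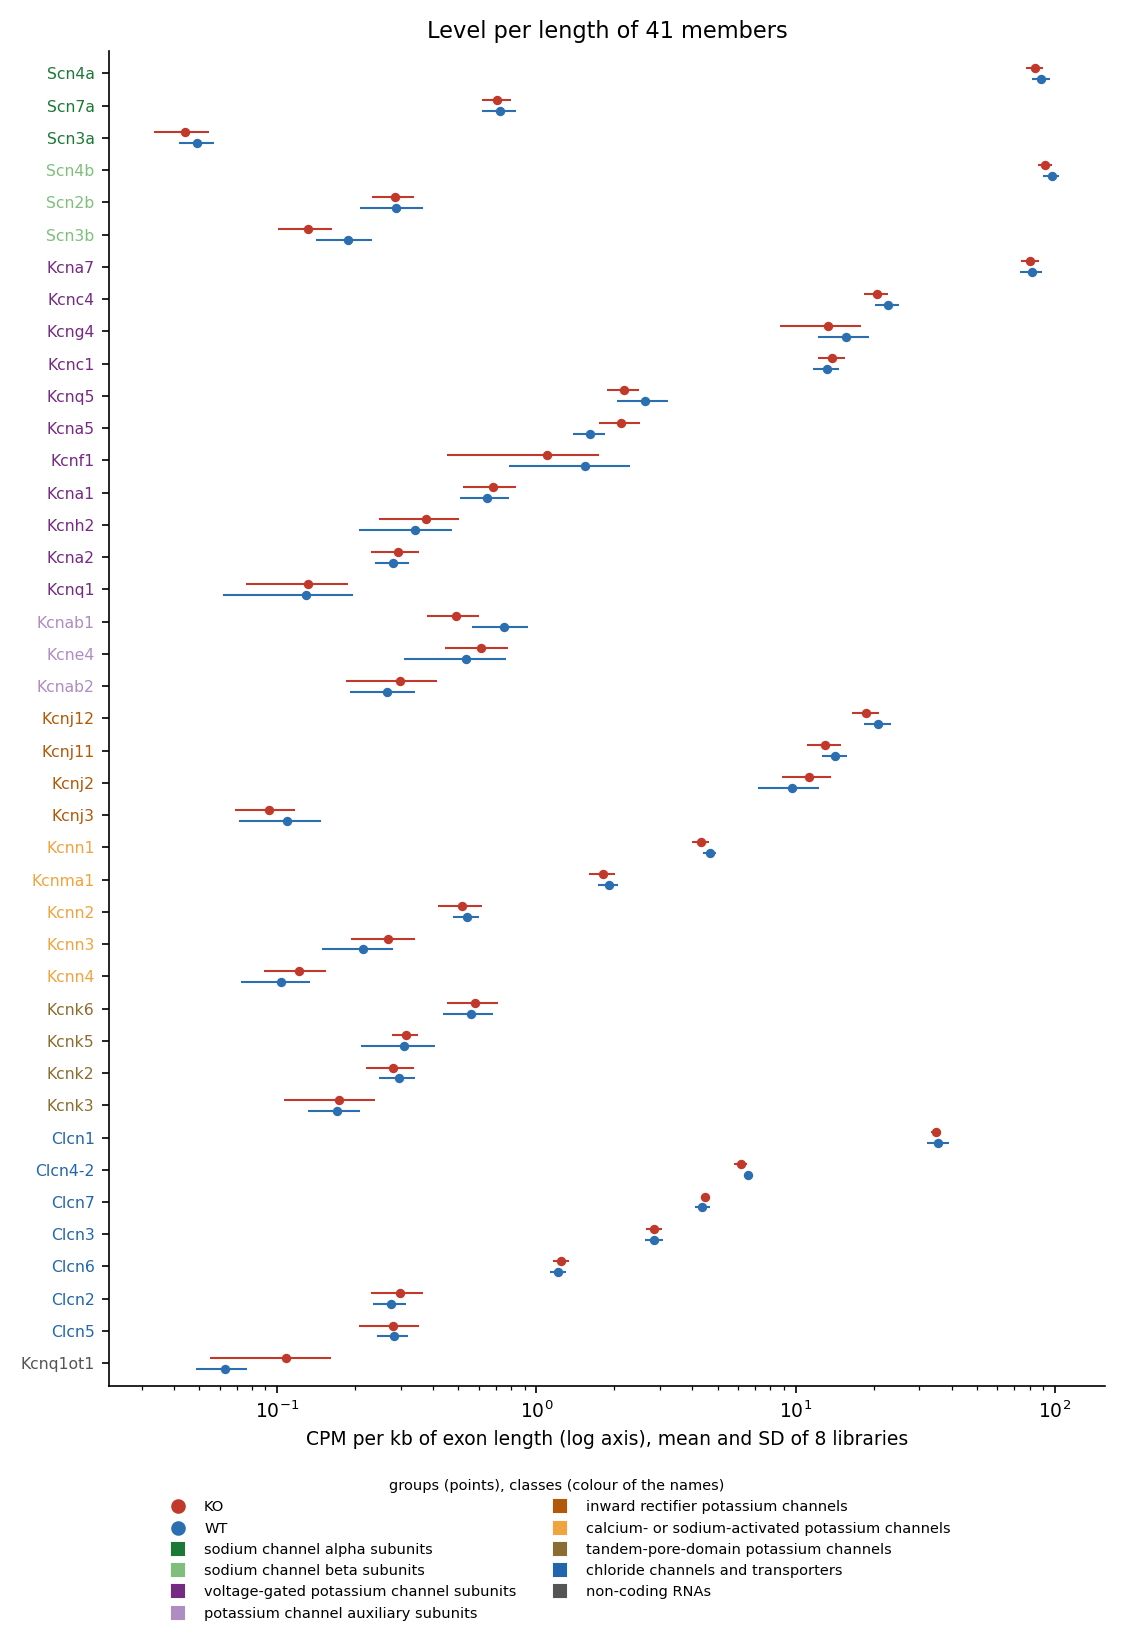
Level of 41 members in CPM per kb of exon length on a log axis, mean and SD of the 8 KO and the 8 WT libraries, by class. The points run from 0.0466 CPM per kb for Scn3a to 94.8 for Scn4b over all libraries, and neighbouring genes often lie as close together as the KO and WT points of 1 gene.

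Among the sodium channel alpha subunit members, the RNA per exon length was almost entirely that of Scn4a. Scn4a, the pore subunit that carries the action potential of adult muscle (chromosome 11, 106318592 to 106353288, minus strand), had 540.4, 582.1 and 672.9 CPM as lowest, median and highest of the KO libraries, against 556.3, 626.2 and 713.8 CPM in WT. The 2 groups overlapped over most of their range. Its log2 fold change was −0.08 with a 95% interval of −0.20 to 0.04 (edgeR quasi-likelihood adjusted p = 0.702), which is a fold of 0.946 (0.873 to 1.03). Per length it made up 99.0% ± 0.157 of the alpha subunit total in KO and 99.1% ± 0.175 in WT (n = 8 libraries each, SD).

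The other alpha subunits were low. Among them, named after their values were seen, were Scn7a, a sodium-sensing relative known from glia and Schwann cells, at 5.18 ± 0.677 CPM in KO and 5.33 ± 0.791 in WT, and Scn3a, known from the developing brain, at 0.549 ± 0.131 CPM in KO and 0.613 ± 0.0948 in WT (n = 8 libraries each, SD). Summed nerve and Schwann cell markers ran from 54.6 to 72.5 CPM in KO and from 42.8 to 78.3 CPM in WT.

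The beta subunits are single-pass proteins that set the gating and surface placement of the alpha subunit. Scn4b (chromosome 9, 45138395 to 45154152, plus strand), which gives the channel its resurgent current in neurons, had 417.6, 451.0 and 495.9 CPM as lowest, median and highest in KO, against 428.9, 482.1 and 541.1 CPM in WT. The WT libraries spanned most of the KO range. The log2 fold change of Scn4b was −0.08 (−0.18 to 0.02; edgeR adjusted p = 0.657).

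Scn3b was the beta subunit with the smallest p. It had 0.736, 0.854, 1.04, 0.664, 0.705, 0.497, 0.578 and 0.656 CPM in KO 1 to 8, against 0.441, 1.03, 1.21, 1.15, 1.00, 1.247, 1.07 and 1.01 CPM in WT 1 to 8. In WT 1 it was below all KO libraries, and in 7 of 8 KO libraries it was below the WT mean. The log2 fold change was −0.53 (−0.93 to −0.13), with an unadjusted p of 0.0121 that did not pass adjustment (edgeR adjusted p = 0.351). Scn2b, the last of the class, had a log2 fold change of −0.03. At about 1 CPM the Scn3b values rest on few counts.

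Clcn1, the channel of the resting chloride conductance (chromosome 6, 42286685 to 42315756, plus strand), had 176.1, 189.8 and 201.8 CPM as lowest, median and highest in KO, against 167.9, 191.2 and 226.2 CPM in WT. The KO libraries lay wholly within the WT range. The KO to WT log2 fold change was −0.03, with an interval of −0.14 to 0.08 (edgeR adjusted p = 0.919). It shares 445 exon bases with Fam131b on the other strand, a gene at 0.638 CPM. Clcn1 made up 69.5% ± 1.04 of the summed level per length of the Clcn genes in KO and 69.4% ± 1.80 in WT (n = 8 libraries each, SD).

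The remaining Clcn genes encode chloride-proton exchangers of endosomes and lysosomes, apart from the plasma membrane channel Clcn2. Clcn3, an endosomal exchanger, had 43.5, 47.6 and 52.6 CPM in KO, against 40.7, 50.4 and 52.5 CPM in WT. Clcn7, the lysosomal exchanger that works with Ostm1, had 22.5, 23.6 and 25.2 CPM in KO, against 20.8, 22.9 and 26.1 CPM in WT. Their log2 fold changes were −0.01 and 0.04 (edgeR adjusted p = 0.988 and 0.835). Clcn4-2, the mouse gene of the exchanger Clcn4, had 48.3, 53.9 and 56.0 CPM in KO, against 53.2, 56.5 and 58.9 CPM in WT, and was below the WT mean in 8 of 8 KO libraries. This gave a log2 fold change of −0.09 (−0.17 to −0.01), with an unadjusted p of 0.0275 and an edgeR adjusted p of 0.444. The 3 less abundant genes, Clcn2, Clcn5 and Clcn6, had log2 fold changes of 0.12, −0.03 and 0.04. For all 7 Clcn members the interval lay within a 1.5-fold change.

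**Figure D3:**
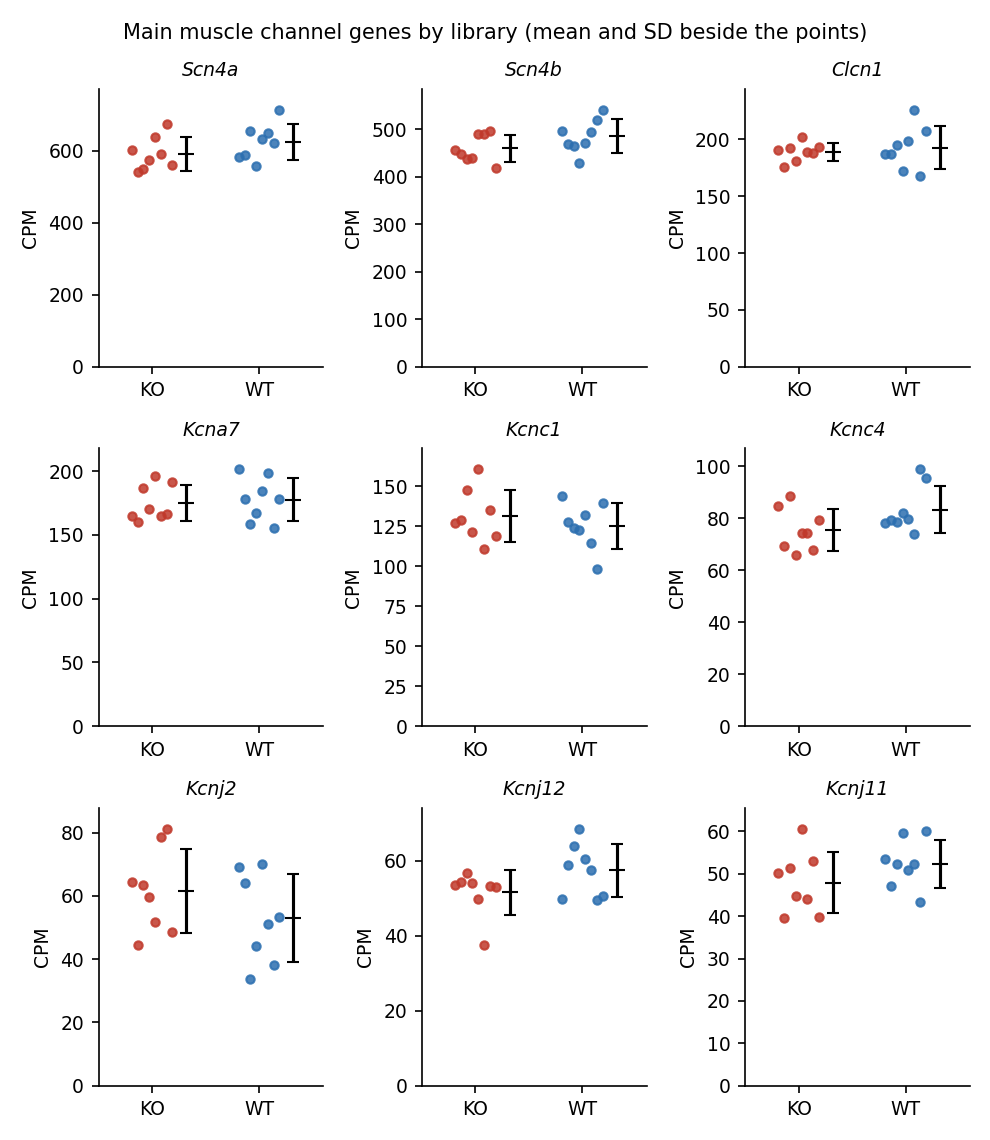
CPM by library of 9 main muscle channel genes, KO left and WT right in each panel, with the mean and SD beside the points and axes from 0. For every gene the KO and WT points overlap; Scn4a runs from 540.4 to 672.9 in KO and from 556.3 to 713.8 in WT.

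Among the 14 voltage-gated potassium channel subunits, 6 had a log2 fold change above 0 and 8 below, with a median of −0.02 and 0 called. Kcna7, a channel of skeletal muscle and heart (chromosome 7, 45405653 to 45409763, plus strand), led with 160.5, 168.3 and 196.0 CPM in KO, against 155.8, 178.2 and 201.7 CPM in WT. It made up 55.6% ± 2.77 of the class per length in KO and 53.8% ± 2.50 in WT (n = 8 libraries each, SD). Its log2 fold change was −0.02 (−0.15 to 0.11; edgeR adjusted p = 0.951).

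The Shaw-type subunits Kcnc1 and Kcnc4, which form fast channels that shorten action potentials in neurons, came next by CPM. Kcnc1 had 110.4, 127.9 and 160.6 CPM in KO, against 98.1, 125.8 and 143.9 CPM in WT. Kcnc4 had 66.0, 74.3 and 88.5 CPM in KO, against 74.0, 79.7 and 99.0 CPM in WT. Their log2 fold changes were 0.07 and −0.14 (edgeR adjusted p = 0.839 and 0.558), and both groups overlapped. The less abundant subunits Kcna1, Kcna2, Kcnh2 and Kcnq1 had log2 fold changes between 0.05 and 0.11.

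The Kcnq subunits carry slow, non-inactivating currents. Kcnq5, described in brain and skeletal muscle, had 12.2, 17.2 and 20.04 CPM as lowest, median and highest in KO, against 12.2, 20.2 and 25.5 CPM in WT. It was below the WT mean in 8 of 8 KO libraries, at a log2 fold change of −0.28 (−0.55 to −0.01; unadjusted p = 0.0461, edgeR adjusted p = 0.508).

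Kcna5, a channel of atrial muscle and vascular smooth muscle (chromosome 6, 126532551 to 126535412, minus strand), was higher on average in KO. It had 7.36, 6.40, 4.98, 6.36, 5.46, 5.83, 7.62 and 4.52 CPM in KO 1 to 8, against 4.49, 4.20, 4.02, 4.51, 5.16, 5.69, 5.03 and 3.71 CPM in WT 1 to 8. 5 KO libraries were above every WT library, and 7 of 8 were above the WT mean. The log2 fold change was 0.40 (0.17 to 0.64), a fold of 1.32, with an unadjusted p of 0.00205 and an edgeR adjusted p of 0.228. Summed smooth muscle and pericyte markers ran from 362.2 to 441.5 CPM in KO and from 355.6 to 395.3 CPM in WT, with 0 of 7 called. Of these, 3 of 7 (42.9%) were higher in KO at an unadjusted p under 0.05 in edgeR, against 4.02% of all genes. Endothelial markers ran from 216.8 to 251.8 CPM in KO and from 195.7 to 225.8 CPM in WT, with 0 of 5 called and 1 higher at that limit. The part of these cells in the Kcna5 value was not tested.

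The 3 auxiliary potassium channel subunits were all under 10 CPM, and Kcnab2 and Kcne4 had log2 fold changes of 0.16 and 0.18. Kcnab1 encodes a cytoplasmic beta subunit with an aldo-keto reductase fold that binds NADPH and gives some Kcna channels fast inactivation (chromosome 3, 65109384 to 65378223, plus strand). It had 4.11, 3.23, 3.45, 3.98, 4.29, 6.39, 4.31 and 3.94 CPM in KO 1 to 8, against 4.13, 6.95, 5.48, 5.73, 6.51, 9.60, 7.01 and 5.90 CPM in WT 1 to 8. All 8 KO libraries lay below the WT mean and 5 below every WT library, with WT 1 among the KO values and KO 6 among the WT values. The log2 fold change was −0.59 (−0.91 to −0.28), a fold of 0.662, with an unadjusted p of 0.000985.

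Kcnab1 had the smallest p of the 46 members, and its call depended on the tool. It did not pass with edgeR (adjusted p = 0.192) or limma-voom (adjusted p = 0.201) and passed with DESeq2 (adjusted p = 0.0207). Over all alternatives the adjusted p ran from 0.0207 to 0.504 and the log2 fold change from −0.71 to −0.49, always negative. The highest adjusted p came without KO 1, 3, 5 and 8. It shares 201 exon bases with an antisense gene, A330015K06Rik, which had 0.0121 CPM.

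**Figure D4:**
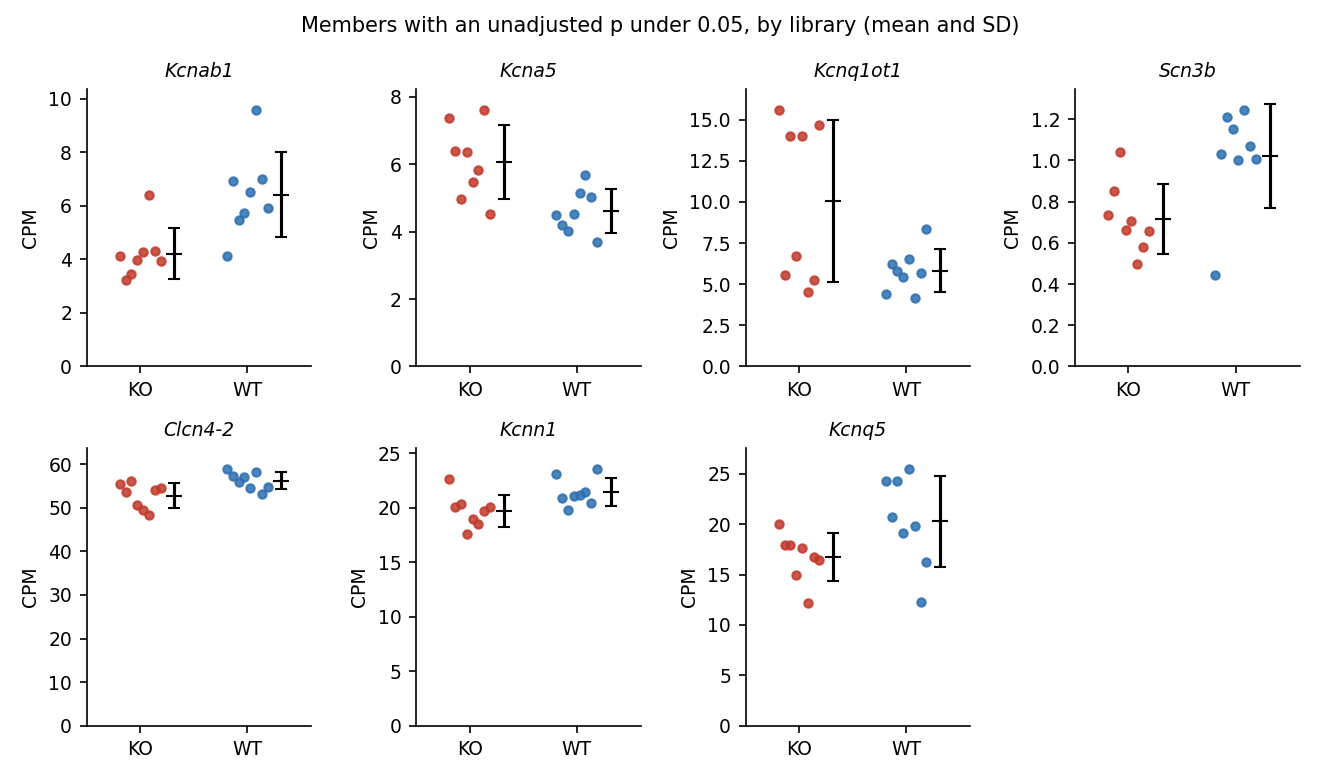
CPM by library of 7 members with an unadjusted p under 0.05, KO left and WT right, with mean and SD beside the points and axes from 0. Kcnab1, Scn3b, Clcn4-2, Kcnn1 and Kcnq5 have lower KO means, Kcna5 and Kcnq1ot1 have higher ones, and in each panel some points of the groups overlap.

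The inward rectifiers set the resting potential and the clearance of potassium from the transverse tubules. Kcnj2, the classical muscle inward rectifier, had 44.6, 61.5 and 81.3 CPM as lowest, median and highest in KO, against 33.8, 52.2 and 70.1 CPM in WT. Kcnj12, its close relative, had 37.6, 53.4 and 56.8 CPM in KO, against 49.6, 58.3 and 68.6 CPM in WT. The log2 fold changes were 0.22 (−0.11 to 0.56) for Kcnj2 and −0.16 (−0.33 to 0.02) for Kcnj12 (edgeR adjusted p = 0.704 and 0.574). Kcnj12 was below the WT mean in 8 of 8 KO libraries, and KO 6, its lowest library, was apart from the rest.

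Kcnj11, the pore of the ATP-sensitive channel, had 39.7, 47.5 and 60.7 CPM in KO, against 43.3, 52.3 and 60.1 CPM in WT, a log2 fold change of −0.13 (−0.31 to 0.05; edgeR adjusted p = 0.688). Of the summed level per length of this class, Kcnj12 made up 43.6% ± 5.44 in KO and 46.5% ± 4.47 in WT, Kcnj11 30.1% ± 3.09 in KO and 31.7% ± 2.77 in WT, and Kcnj2 26.1% ± 5.03 in KO and 21.5% ± 4.90 in WT (n = 8 libraries each, SD). These shares overlapped between the groups. Kcnj3, a subunit of G-protein-gated channels and the lowest of the class, had a log2 fold change of −0.24 (−0.70 to 0.23).

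Of the 5 calcium-activated channels, Kcnma1, the large-conductance channel, had 26.5, 29.8 and 35.2 CPM in KO, against 28.4, 31.8 and 36.6 CPM in WT, a log2 fold change of −0.08. The small-conductance subunit Kcnn1 had 17.6, 19.9 and 22.6 CPM in KO, against 19.8, 21.1 and 23.6 CPM in WT, with 4 KO libraries below every WT library. Between genotypes the log2 fold change was −0.12 (−0.22 to −0.01; unadjusted p = 0.0297, edgeR adjusted p = 0.455). Kcnn2 had 2.81, 4.19 and 4.77 CPM in KO, against 3.57, 3.84 and 4.84 CPM in WT, a log2 fold change of −0.07. Kcnn3, the small-conductance channel that appears in rodent muscle after denervation, had 2.07, 2.57 and 4.47 CPM in KO, against 1.65, 1.85 and 3.33 CPM in WT, at a log2 fold change of 0.32 (−0.07 to 0.71; edgeR adjusted p = 0.621). Kcnn4, an intermediate-conductance channel of blood cells, had 0.21.

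The 4 tandem-pore-domain channels, which carry background potassium current, had log2 fold changes between −0.07 and 0.07, and all 4 intervals lay within a 1.5-fold change. Their summed level was 1.35 ± 0.145 CPM per kb in KO and 1.33 ± 0.166 in WT (n = 8 libraries each, SD).

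Kcnq1ot1 is a member by its name alone: it is a long non-coding RNA made from the imprinted Kcnq1 locus, antisense to Kcnq1, and encodes no channel. It had 15.6, 5.55, 14.0, 6.72, 14.0, 4.50, 5.23 and 14.7 CPM in KO 1 to 8, against 4.41, 6.22, 5.77, 5.46, 6.51, 4.16, 5.70 and 8.38 CPM in WT 1 to 8. KO 1, 3, 5 and 8 formed a high group at 14.0 to 15.6 CPM, and the other 4 KO libraries, at 4.50 to 6.72 CPM, lay within the WT range. Its log2 fold change was 0.79 (0.24 to 1.34; unadjusted p = 0.00748, edgeR adjusted p = 0.307), and −0.08 without those 4 libraries. They are also the libraries with the highest Rn7sk, Rmrp and Rpph1, and WT 8, the highest WT library, had the highest of these among WT. Kcnq1, the pore subunit that shares 121 exon bases with it on the other strand, had 0.539 ± 0.230 CPM in KO and 0.5261 ± 0.274 in WT (n = 8 libraries each, SD).

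The spread between libraries of 1 genotype differed widely among the members, of which 27 were under 10 CPM. The median SD of their log2 CPM was 0.293 in KO and 0.227 in WT, against 0.161 in KO and 0.164 in WT over all genes tested. edgeR's biological coefficient of variation, read from its trend with mean level, had a median of 14.6% for the members and 12.8% for all genes. It was 11.3% for both Kcng4 and Clcn4-2, so it follows level and does not measure a gene's own spread. The coefficient of variation between libraries was 58.7% in KO and 49.2% in WT for Kcnf1, and 34.6% in KO and 22.4% in WT for Kcng4. At the other end it was 4.11% in KO and 9.74% in WT for Clcn1 and 3.45% in KO and 6.73% in WT for Clcn7. KO 2, the library with the fewest estimated counts (16065394), was the lowest KO library for 14 members and the highest for 3. KO 6 was the lowest KO library for 12 and the highest for 9. WT 7 was the lowest WT library for 12 and the highest for 8. The same counts over all genes were not made.

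Kcnf1 and Kcng4 are electrically silent subunits, which give no current alone and assemble with delayed rectifier subunits, changing their gating. Their relation was looked at after the values were seen. Kcnf1, a member chosen for description after its values were seen, had 11.3, 5.61, 7.52, 4.69, 2.94, 1.46, 5.39 and 3.10 CPM in KO 1 to 8, against 7.18, 6.13, 12.1, 7.97, 13.3, 4.28, 3.37 and 4.67 CPM in WT 1 to 8. Kcng4 had 29.0, 53.9 and 77.4 CPM as lowest, median and highest in KO, against 32.1, 61.0 and 72.2 CPM in WT.

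Over the 16 libraries, log2 CPM of Kcnf1 and Kcng4 had a Pearson r of 0.56 (permutation p = 0.0288, adjusted over 3 relations computed 0.0432) and a Spearman rho of 0.47 (permutation p = 0.0717, adjusted 0.108). Without the 2 libraries farthest from the median of Kcnf1, r was 0.34, so the relation rests in part on those libraries. Within KO, r was 0.53 (exact permutation p = 0.184, adjusted 0.184) and rho 0.45 (exact permutation p = 0.267, adjusted 0.389), and within WT, r was 0.46 (exact permutation p = 0.250, adjusted 0.375) and rho 0.43 (exact permutation p = 0.299, adjusted 0.449). All p-values are two-sided. Between genotypes, neither gene passed: the log2 fold changes were −0.49 (−1.22 to 0.24) for Kcnf1 and −0.24 (−0.65 to 0.18) for Kcng4 (edgeR adjusted p = 0.706 and 0.760).

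**Figure D5:**
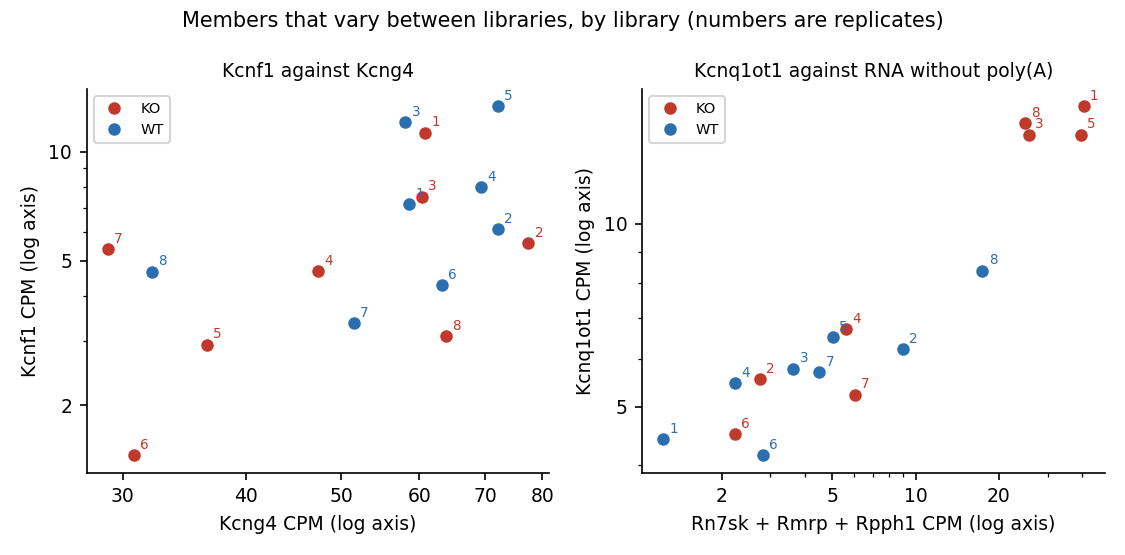
CPM by library on log axes, numbered by replicate: Kcnf1 against Kcng4, and Kcnq1ot1 against the sum of Rn7sk, Rmrp and Rpph1. Kcnf1 and Kcng4 have an r of 0.56, and KO 1, 3, 5 and 8 sit apart at 14.0 to 15.6 CPM of Kcnq1ot1.

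Kcnn3, known to appear in denervated muscle, was highest in KO 6 among KO libraries (4.47 CPM) and in WT 4 among WT libraries (3.33 CPM). Of 15 genes of the denervation response, 6 had a log2 fold change above 0 and 9 below, with a median of −0.10 and 0 called by edgeR or limma-voom. At an unadjusted p under 0.05 in edgeR, where 9.57% of all genes lay, were 3 of the 15, 1 higher and 2 lower in KO. Named after their values were seen, they were Chrne at a log2 fold change of 0.26, Musk at −0.32 and Dach2 at −0.45. DESeq2 called 0 and gave 4 of the 15 no adjusted p. The most abundant were Hdac4, a histone deacetylase, at 46.9 ± 8.48 CPM in KO and 50.5 ± 7.85 in WT, the perinatal myosin Myh8 at 44.0 ± 19.5 in KO and 41.9 ± 22.1 in WT, and the acetylcholine receptor subunit Chrnb1 at 17.02 ± 2.70 in KO and 19.3 ± 5.84 in WT (n = 8 libraries each, SD). Looked at after the values were seen, Chrng, the fetal acetylcholine receptor subunit, was at 0.596 CPM in the library KO 6 and at 4.87 CPM in the library WT 4, and the embryonic myosin Myh3 was at 13.2 CPM in the library KO 6 and at 100.1 CPM in the library WT 4. WT 4 was the highest of all 16 libraries for both, and KO 6 was within the range of the other KO libraries.

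The sodium pump restores the gradients that these channels use. Of its 13 subunits and regulators, 10 were tested, with 8 above 0, 2 below, a median log2 fold change of 0.08 and 0 called. Its beta subunit Atp1b2 had 324.4 ± 42.5 CPM in KO and 310.6 ± 53.2 in WT, and the regulator Fxyd1 had 123.5 ± 6.18 in KO and 127.3 ± 3.78 in WT (n = 8 libraries each, SD). For both the ranges of mean ± SD overlapped between the groups.

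Proteins that anchor, traffic or bind the channels were also without a called gene. Of 32 channel partners and anchors, 24 were tested, 8 above and 16 below 0, with a median of −0.03 and 0 called. At an unadjusted p under 0.05 in edgeR, where 5.55% of all genes were lower in KO, 3 of the 24 (12.5%) were. Among the most abundant were the ankyrin Ank1 at 527.5 ± 48.2 CPM in KO and 541.2 ± 38.6 in WT and the ubiquitin ligase Nedd4 at 439.2 ± 38.2 in KO and 439.4 ± 19.9 in WT (n = 8 libraries each, SD). Of 9 genes for splicing regulators of muscle channels and the myotonic dystrophy loci, 8 were tested, 4 above and 4 below 0, with a median of 0.00 and 0 called. At that limit 1 of the 8 (12.5%) was higher in KO, against 4.02% of all genes. Here Dmpk, the kinase of the type with a CTG repeat, had 390.9 ± 19.1 CPM in KO and 385.7 ± 16.9 in WT, Cnbp, the nucleic acid binding protein of the other type, 346.0 ± 15.6 in KO and 348.8 ± 12.3 in WT, and Mbnl1, which governs Clcn1 splicing, 230.2 ± 23.4 in KO and 242.7 ± 27.8 in WT (n = 8 libraries each, SD). The table gives 1 value per gene, so splice forms were not measured.

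Other channel families were also without a called gene. Of 34 other anion channels and chloride cotransporters, 23 were tested, 13 above and 10 below 0, with a median of 0.01. At an unadjusted p under 0.05 in edgeR, where 9.57% of all genes lay, 2 of the 23 were higher and 3 lower in KO (21.7%). Of the 23, Clic5 had a median of 192.5 CPM in KO and 215.5 in WT, Ano5, the anoctamin of a human muscular dystrophy, 143.2 ± 13.0 in KO and 153.9 ± 11.2 in WT, and the lipid scramblase Ano6 66.0 ± 6.70 in KO and 66.1 ± 5.36 in WT (n = 8 libraries each, SD). Of 21 other cation channels, 12 were tested, 4 above and 8 below 0, with a median of −0.02. At that limit 1 was higher and 1 lower in KO (16.7% of the 12, against 9.57% of all genes). The counter-ion channel of the sarcoplasmic reticulum Tmem38a had 932.5 ± 32.7 CPM in KO and 944.5 ± 25.9 in WT, its relative Tmem38b 50.5 ± 5.25 in KO and 56.1 ± 4.72 in WT, and the endolysosomal channel Tpcn1 84.2 ± 6.56 in KO and 85.3 ± 3.51 in WT (n = 8 libraries each, SD). Tmem38b was the 1 lower, at a log2 fold change of −0.15 (unadjusted p = 0.0330, edgeR adjusted p = 0.468). The 1 higher was Hvcn1, named after its values were seen, at a log2 fold change of 0.61 (unadjusted p = 0.0359, edgeR adjusted p = 0.473). It had 1.33 ± 0.475 CPM in KO and 0.887 ± 0.416 in WT (n = 8 libraries each, SD).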

How the data were processed

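Per the labels' protocols, quadriceps RNA (Trizol, then a column) was made into strand-marked mRNA libraries and sequenced as pairs of 52 bases. Per the submitters' processing notes, the reads were demultiplexed and quantified with tools that include bcl2fastq 4.0.3, STAR and Salmon, on GRCm38. Versions of STAR and Salmon, the annotation and how strand was counted were not given in the sources used here. In GENCODE vM21, 16 members share exon bases with another gene. Among them are Clcn1, Clcn2, Clcn4-2, Kcnab1, Kcnab2, Kcnj3, Kcnk2, Kcnk3, Kcnma1, Kcnn1, Kcnn2, Kcnq1, Kcnq1ot1 and Kcnq5. Their reads may thus be divided with that gene where it was counted. The genes overlapping Clcn4-2 and Kcnma1 have no entry in the deposited counts. The deposited table holds the authors' estimated counts by gene, not scaled to depth. Non-whole values made up 11.1% and were rounded for the count models.

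The 46 members and the other lists were chosen with earlier results of these data known. The rule's CPM divides a count by the column sum. All printed CPM use TMM-scaled library sizes, and CPM per kb divides by the exon union of GENCODE vM21. KO and WT were compared with edgeR 4.0.16 (R 4.3.3; quasi-likelihood F test, TMM, default filter, no covariate, 13792 genes), with adjusted p under 0.05 as the limit. SE is the log2 fold change over the root of F. DESeq2 1.42.0, limma-voom 3.58.1, other scalings, no filter, RIN, a replicate block and left-out libraries were alternatives. Leaving out KO 1, 3, 5 and 8, and a covariate for RNAs without poly(A), were added after seeing the data. On simulated counts of 13682 genes for this comparison, edgeR found 78% of simulated 1.5-fold changes and 98% at 2-fold, and the true value lay in 95.2% of the 95% intervals. The simulated spread was taken from edgeR's trend with mean level alone, and the lowest genes were given no change. The members varied more between libraries than all genes did, so these shares may be too high for them. The simulation also changed more genes than were called in the data, which eases the adjusted limit and may raise the shares found.

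Named members are those with a mean of at least 10 CPM, the 8 with the smallest unadjusted p, the nearest to the level limit and a set of known muscle channels; from the other lists, the 3 genes highest in CPM. A few members and other genes that this rule names are not reported here one by one, though counts over the 46 members and over the lists hold them. Within a genotype, no pair of libraries had a chi-square under 8.09 (KO) or 9.42 (WT) per degree of freedom, so all 16 were kept as separate samples. Marker lists for adipocytes, macrophages, fibro-adipogenic cells, satellite cells and blood were also summed. In CPM these ran from 14.0 to 35.6 in KO and 16.1 to 33.8 in WT, from 43.4 to 100.2 in KO and 47.6 to 98.1 in WT, from 450.7 to 814.4 in KO and 467.4 to 815.2 in WT, from 3.18 to 6.17 in KO and 3.17 to 4.66 in WT, and from 90.7 to 146.7 in KO and 55.0 to 182.9 in WT, in that order.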

Additional observations from a re-analysis of the deposited data

Results flagged for a closer look

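6 of the 92 sets of 8 libraries (46 members in each genotype) had 1 library farther from its neighbours than Dixon's limit for 8 values. Chance flags about 1 in 20 groups.

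3 of these were in KO 6. Kcnj12, the inward rectifier, was lowest there at 37.6 CPM, with the next KO library at 49.8 CPM, and without KO 6 its log2 fold change was −0.10. Kcnab1, the potassium channel beta subunit, was highest there at 6.39 CPM, with the next at 4.31 CPM, and without KO 6 its log2 fold change was −0.71 (edgeR quasi-likelihood adjusted p = 0.0908). Kcnn3, the small-conductance channel, was highest there at 4.47 CPM, with the next at 3.20 CPM, and without KO 6 its log2 fold change was 0.19 in place of 0.32.

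2 were in WT 7, in genes named after their values were seen. Kcnh2, a potassium channel known from the heart, was highest there at 3.10 CPM, with the next WT library at 1.93 CPM, and without WT 7 its log2 fold change was 0.32 in place of 0.11. Kcne4, an auxiliary subunit, was highest there at 2.86 CPM, with the next at 1.37 CPM, and without WT 7 its log2 fold change was 0.43 in place of 0.18 (edgeR adjusted p = 0.338).

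The last was Scn3b, the sodium channel beta subunit, lowest in WT 1 at 0.441 CPM with the next WT library at 1.00 CPM. Without WT 1 its log2 fold change was −0.64 (edgeR adjusted p = 0.185).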

How the results depend on the processing

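Over 25 alternatives, 960 of the 1025 fold changes of 41 members kept their sign and their side of the limit, 64 in 16 genes had the other sign, and 1, Kcnab1 with DESeq2 (log2 fold change −0.60, adjusted p = 0.0207), became called. Over all 46, the count of members called was 1 with DESeq2 and 0 in the other 24. Of all genes, edgeR called 6, against 2 with RLE scaling, 3 with no filter, 96 with DESeq2, 2 with the replicate block, 2 without KO 1, 3, 5 and 8, and 2 with the covariate for RNAs without poly(A), and 2 to 8 when 1 library was left out. Only 2 of 8 libraries correlated best with the library of their own number, with correlations of −0.10 to 0.24, so the numbers were not taken as pairs. The replicate block called 0 members.

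Without KO 1, 3, 5 and 8 the log2 fold changes with the other sign were −0.0158 for Kcnc1, 0.0090 for Clcn3, −0.0835 for Kcnq1ot1, −0.0052 for Clcn6, 0.0060 for Scn7a, −0.1498 for Kcna2, −0.0671 for Kcna1, 0.0873 for Scn2b, −0.0643 for Kcnk5 and −0.1631 for Kcnk3. With the covariate for RNAs without poly(A) they were 0.035 for Scn7a, −0.0673 for Kcna2, 0.0446 for Clcn5, −0.0617 for Kcna1, 0.1627 for Scn2b and −0.084 for Kcnk3. Clcn3 had 0.0032 with upper-quartile scaling, Kcnk6 −0.0157 with limma-voom, and with RIN as covariate Kcnk6 had −0.0029 and Kcnk5 −0.0074. With 1 library left out, 12 genes reached the other sign, their values running from −0.0539 to 0.0086 for Clcn1, −0.0373 to 0.0153 for Clcn3, −0.1024 to 0.0543 for Clcn5, −0.0142 to 0.1539 for Kcna1, −0.0145 to 0.1175 for Kcna2, −0.046 to 0.0072 for Kcna7, −0.0044 to 0.3231 for Kcnh2, −0.0374 to 0.1682 for Kcnk3, −0.0672 to 0.1116 for Kcnk5, −0.0382 to 0.1308 for Kcnk6, −0.0517 to 0.2912 for Kcnq1 and −0.0771 to 0.0476 for Scn2b. The cause was not tested. Members near 0.5 CPM rest on few counts, which widens their intervals, and interval and p cover the spread of these 16 libraries only.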
